A study of Mus musculus with 74 samples.

Results

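GPS2 ChIP-seq peaks were compared between livers of Ppara knockout (KO) and wild-type (WT) mice. All 27842 peaks that were counted in these livers were taken, of 743949 rows in the 11 peak tables of the series. The 6 libraries, 3 per genotype, were 6 of 74 in the series. Each row holds the raw number of sequence tags in that peak in every library. The mice were C57BL/6 by their labels, 8 to 12 weeks old and fed chow. The KO carries the allele Ppara tm1Gonz, which removes PPARα from the whole body and not from hepatocytes alone. The paper calls these mice C57Bl/6J and gives a stock name that starts with B6;129S4, a mixed strain background. No treatment was given to either genotype. How the WT controls of this line were bred was not given in the sources used here. Each library came from a pool of 2 to 4 immunoprecipitations, so the spread between libraries may be smaller than that between animals. Whole liver was used, so a smaller share of cells carrying GPS2 at a peak and less GPS2 per cell cannot be told apart.

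GPS2 is a subunit of the corepressor complex that contains NCOR or SMRT, HDAC3 and the TBL1 proteins. The complex has no sequence preference of its own and is brought to DNA by transcription factors. PPARα is the nuclear receptor that senses fatty acids in hepatocytes. It binds with RXR to the DR1 element, a direct repeat of AGGTCA with 1 free base, and drives genes of fatty acid oxidation, ketogenesis and lipid transport. The comparison asks at which sites GPS2 depends on the receptor.

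The labels were checked on PPARα itself. At the 5639 GPS2 peaks that lay in the PPARα peak lists of both WT livers of this line, the median PPARα ChIP-seq signal was 13.4 and 14.5 tags per 10000000 total tags (10M) in WT. It was 2.06 and 2.20 in the 2 KO livers. The receptor signal at these sites was low in the KO livers of that ChIP-seq. The sites were chosen by the WT lists, which favours WT. Over 20027 matched GPS2 peaks the PPARα medians were 4.95 and 5.35 in WT and 1.37 and 1.47 in KO. Peaks of all 8 hepatocyte marker genes were present, 18 in number. Markers of macrophages, endothelial, stellate, biliary and lymphoid cells had peaks at 12 of 42 genes, 16 peaks in all. In the edgeR test described next 0 of the 16 were called, where 0.273% of all peaks were. Their median log2 change was -1.28, or -0.27 with TMM, lower than the -0.93 and 0.01 of all peaks. The part of cell makeup in the results was not tested.

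Sequences of 7 peaks are shown first, because the results turn on them. All are 300 bases around the peak centre, on the plus strand of mm9. Capitals mark DR1 elements found on either strand in the central 200 bases. The first 3 are the largest significant falls with at least 60 tags over the 6 libraries that hold a DR1 with at most 1 mismatch in its 12 fixed bases. The Cbfa2t3 peak holds 3 of them and the others 1 each.
Cbfa2t3, intron, chr8:125219348-125219647: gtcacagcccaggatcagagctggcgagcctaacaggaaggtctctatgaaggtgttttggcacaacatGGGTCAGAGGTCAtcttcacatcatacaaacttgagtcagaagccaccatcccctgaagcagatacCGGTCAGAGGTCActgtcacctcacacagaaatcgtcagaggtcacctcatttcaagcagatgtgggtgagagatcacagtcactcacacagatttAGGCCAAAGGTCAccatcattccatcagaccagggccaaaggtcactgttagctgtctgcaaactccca
Pla2g4b, intergenic, chr2:119884566-119884865: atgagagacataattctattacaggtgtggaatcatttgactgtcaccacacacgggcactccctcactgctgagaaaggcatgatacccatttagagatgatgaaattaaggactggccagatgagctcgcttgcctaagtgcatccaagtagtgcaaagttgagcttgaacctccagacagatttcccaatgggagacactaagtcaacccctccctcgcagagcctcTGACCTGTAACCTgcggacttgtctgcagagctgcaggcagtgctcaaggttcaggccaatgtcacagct
E230029C05Rik, intergenic, chr7:97214853-97215152: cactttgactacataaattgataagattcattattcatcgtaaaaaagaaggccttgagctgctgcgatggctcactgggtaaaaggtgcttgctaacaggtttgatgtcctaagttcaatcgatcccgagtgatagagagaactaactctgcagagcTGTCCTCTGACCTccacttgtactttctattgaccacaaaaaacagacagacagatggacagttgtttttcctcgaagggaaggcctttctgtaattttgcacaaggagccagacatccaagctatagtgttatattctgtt
The next is the largest fall of all. It holds no DR1 at up to 2 mismatches. Shifted by 57 bases, 96.3% of its bases equal themselves, so it is a tandem repeat, and tags may match it at several positions. The methods scale peak heights to uniquely mapped reads, but whether other tags were counted in the table was not given in the sources used here.
Palb2, an intron, chr7:129262421-129262720: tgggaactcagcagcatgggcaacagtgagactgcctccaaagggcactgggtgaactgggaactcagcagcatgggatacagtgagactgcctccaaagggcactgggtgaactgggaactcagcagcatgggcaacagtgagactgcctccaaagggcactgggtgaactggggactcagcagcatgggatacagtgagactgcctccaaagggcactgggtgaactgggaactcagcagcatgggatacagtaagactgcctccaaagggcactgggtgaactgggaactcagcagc
The next are peaks of 2 PPARα target genes that did not pass the test. The peak upstream of Pdk4 holds 2 DR1 elements at 2 mismatches. The Cyp4a14 peak holds none, and the best match there has 4 mismatches.
Pdk4, at -13552 bp, chr6:5459680-5459979: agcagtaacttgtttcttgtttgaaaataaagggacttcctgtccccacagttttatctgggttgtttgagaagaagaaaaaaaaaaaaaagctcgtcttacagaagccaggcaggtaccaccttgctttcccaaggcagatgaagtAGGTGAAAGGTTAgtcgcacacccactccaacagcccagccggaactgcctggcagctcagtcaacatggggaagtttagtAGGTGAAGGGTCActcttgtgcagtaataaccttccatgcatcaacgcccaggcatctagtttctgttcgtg
Cyp4a14, at -1554 bp, chr4:115170150-115170449: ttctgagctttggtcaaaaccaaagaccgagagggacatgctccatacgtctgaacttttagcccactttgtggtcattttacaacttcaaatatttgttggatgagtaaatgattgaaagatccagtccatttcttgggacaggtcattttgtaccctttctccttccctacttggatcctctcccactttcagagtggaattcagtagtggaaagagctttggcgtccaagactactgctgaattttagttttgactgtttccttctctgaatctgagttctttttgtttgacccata
The last is the peak with the highest KO level among those near a gene. The file annotates it as ribosomal RNA sequence at -9589 bp from the start site of Txndc11.
Txndc11, ribosomal RNA repeat, chr16:11144064-11144363: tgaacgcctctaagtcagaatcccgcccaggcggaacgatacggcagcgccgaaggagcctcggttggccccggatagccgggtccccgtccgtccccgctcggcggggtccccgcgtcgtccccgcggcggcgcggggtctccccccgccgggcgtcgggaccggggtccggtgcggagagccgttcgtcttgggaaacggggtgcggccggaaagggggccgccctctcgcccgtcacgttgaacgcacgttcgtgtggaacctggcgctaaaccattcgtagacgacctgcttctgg

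The amount of GPS2 signal differed between the genotypes and between the libraries of each genotype. The libraries were similar in depth, with 13.2 to 15.4 M tags in total (M, 1000000) in 5 of them and slightly fewer in WT replicate 3. In WT, 2.55%, 2.42% and 4.39% of all tags lay in the peaks. In KO the values were 2.06%, 1.87% and 1.07%. Every KO library was below every WT library, with means of 3.12% ± 1.10 (SD, n = 3) and 1.67% ± 0.521. The exact permutation test gave p = 0.1, the smallest value that 3 against 3 allows. WT replicate 3 and KO replicate 3 stood apart from the others in opposite directions. Without both, the WT to KO ratio of the shares fell from 1.87 to 1.27. The authors' own list was likewise longest for WT replicate 3 and shortest for KO replicate 3. The WT lists held 11339, 11572 and 20818 peaks and the KO lists 7479, 5450 and 806. All 27842 rows lay in at least 1 list, and 9861 of them in a list of a KO library. Rows that entered through WT lists alone favour WT in the share, the median change and the counts of lower peaks. The size of this part was not tested. NCOR ChIP-seq of this line showed the same order of replicate 3, with a median at the GPS2 peaks of 38.2, 36.1 and 43.8 tags per 10M in WT and 32.7, 35.0 and 24.2 in KO. The part that replicate 3 of each genotype has in the results was not tested beyond the values given without it.

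**Figure D1:**
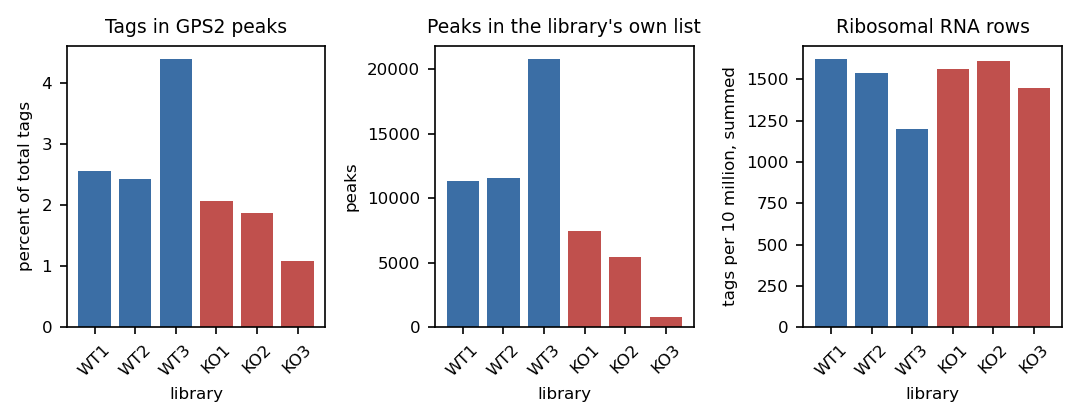
The 6 GPS2 libraries on the x axes, WT in blue and KO in red. Bars give the percent of total tags inside the 27842 peaks (left), the number of peaks in the library's own list (middle) and the summed tags per 10M over 18 rows of ribosomal RNA sequence (right). The first pair of measures is highest in WT3 and lowest in KO3, while the ribosomal rows lie between 1200 and 1624 in all 6 libraries.

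Rows of ribosomal RNA sequence did not follow this order. Their class was chosen after its values were seen. The 18 rows summed to 1624, 1541 and 1200 tags per 10M in WT and to 1561, 1609 and 1445 in KO, with an exact permutation p of 0.7. In 8 of the 18, WT3 lay below 0.5 times the lowest of the other libraries. The Txndc11 row held 152, 142 and 138 tags per 10M in WT and 144, 151 and 133 in KO. Its log2 change was -0.01 ± 0.35 (SE) when scaled to total tags and 0.90 ± 0.38 with TMM. The PPARα ChIP-seq held 80.0 and 75.7 tags per 10M there in WT and 95.4 and 68.9 in KO. In the line with hepatocyte loss of Gps2 (LKO), the GPS2 library of WT held 108 and that of LKO 0. Over 17 matched ribosomal rows the median of this LKO library was 0, and that of its WT library 59.4. PPARα ChIP-seq of Ppara KO liver had medians of 43.9 and 39.2 over 16 such rows. The LKO library, the only 1 of its genotype, thus lacked a signal found in KO liver with another antibody. Whether its 0 reflects GPS2 was not tested.

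The scaling decided how many peaks were called. Scaled to total tags, 76 peaks were lower in KO at an adjusted p below 0.05 (0.273% of all) and 0 were higher (0.0%) by edgeR's quasi-likelihood test. At an unadjusted p below 0.05 there were 6403 lower and 7 higher. The median log2 change over all peaks was -0.93. TMM, which sets the bulk of peaks to no change, gave scaling factors of 1.15, 1.10 and 2.10 for WT and 0.921, 0.836 and 0.488 for KO. With TMM the median moved to 0.01, 27 peaks were lower (0.097%) and 15 were higher (0.0539%). All 27 were among the 76. Of the 76, 5 lay in a peak list of a KO library, against 9861 of all peaks. Without regard to a test, all 3 KO libraries lay below all 3 WT libraries in 8707 peaks (31.3%) and above them in 39 (0.14%). The counts rested on single libraries. With total tags 24, 68 and 24 peaks were lower without WT replicate 1, 2 or 3, and 5, 2 and 24 without KO replicate 1, 2 or 3. With TMM the counts were 8, 29 and 21, and 3, 17 and 29. Ratios within each library are given below because no scaling enters them, though they can vary with the share of tags in peaks.

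The peaks that lost GPS2 were mostly distal sites with PPARα. Of the 76, 61 (80.3%) lay in the PPARα peak lists of both WT livers, against 20.3% of all peaks. Peaks not in both lists are called peaks without PPARα here, which does not mean that the receptor was absent. In the lists of at least 2 of 8 WT libraries, from this, the Gps2 and the NCOR line, 75 of the 76 (98.7%) and 88.2% of all peaks had PPARα. In turn, 1.08% of the 5639 peaks with PPARα were called lower and 0.0676% of the 22203 without, against 0.273% overall. With TMM the calls were 25 of 5639 and 2 of 22203. The peaks were divided into 3 equal groups by tag number. In the lowest group 0.205% with PPARα and 0.0455% without were called. In the middle group 1.24% and 0.0876% were called, and in the highest 1.14% and 0.0738%. With TMM, 5 of the 5639 peaks with PPARα were higher, and 15 of all 27842 peaks were (0.0539%).

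Promoters, defined as within 1000 bp of a start site, held few of the losses. Of 8153 promoter peaks 2 were lower (0.0245%), and of 19689 distal peaks 74 (0.376%). All 61 losses with PPARα were distal, and 0 of the 515 promoter peaks with PPARα were called. The median WT height was 16.3 tags per 10M in the 515 and 15.6 in the distal peaks with PPARα. Their median log2 change was -0.96, against -1.12 for distal peaks with PPARα, -0.996 for distal peaks without and -0.63 for promoters without. With TMM these medians were -0.03, -0.18, -0.06 and 0.29. H3K4me3, a histone mark of promoters, was present at 11.8% of the 76 and 43.8% of all peaks. H3K27ac, a mark of active elements, was present at 67.1% and 84.0%.

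**Figure D2:**
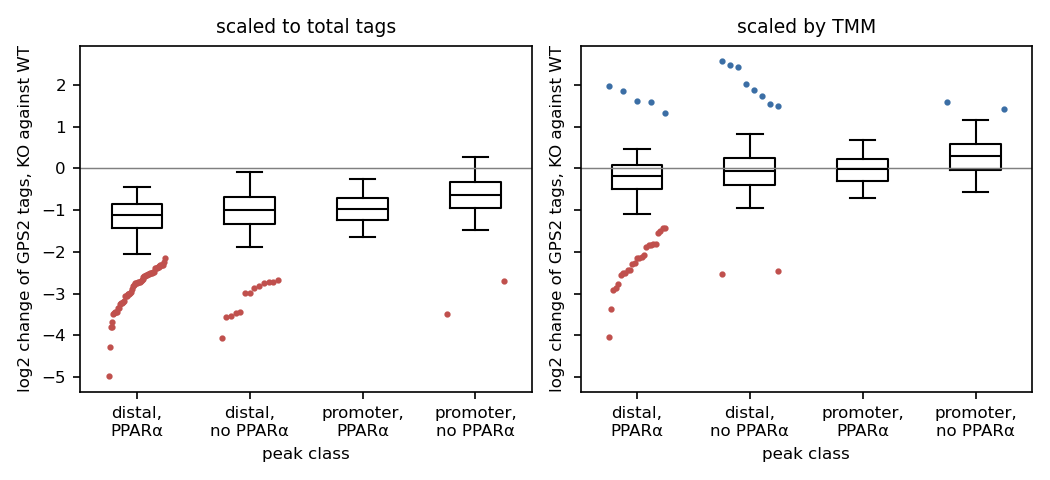
Log2 change of GPS2 tags in KO against WT (y axis) for 4 classes of peaks, scaled to total tags (left) and by TMM (right). Boxes span the quartiles with the median as a line, whiskers the 5th to 95th percentile, and points are peaks called lower (red) or higher (blue) at an adjusted p below 0.05. The order of the 4 medians is the same under both scalings, and red points gather at distal peaks with PPARα.

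Within each library, tags at peaks with PPARα can be set against tags at all other peaks. The log2 ratio was -1.06, -1.15 and -1.01 in WT and -1.23, -1.23 and -1.49 in KO. The groups did not overlap and their means differed by -0.24, or by -0.12 without replicate 3 of each genotype. Tags at promoters against distal peaks gave -1.35, -1.27 and -1.66 in WT and -1.16, -1.17 and -0.91 in KO, a difference of 0.35 or of 0.14 without replicate 3. NCOR peaks without PPARα held a near-equal part of the tags, with 0.35, 0.37 and 0.49 in WT and 0.45, 0.44 and 0.47 in KO, and there the groups overlapped. The exact permutation p of the first 2 ratios was 0.1, the smallest possible. So the share of GPS2 tags at PPARα sites was lower, and that at promoters higher, in every KO library. Among the WT libraries both ratios followed the percent of all tags in peaks, which was highest in replicate 3. KO replicate 3, with the lowest percent in peaks, had the lowest PPARα and the highest promoter ratio. Genotype and the percent of tags in peaks therefore cannot be told apart in these ratios.

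**Figure D3:**
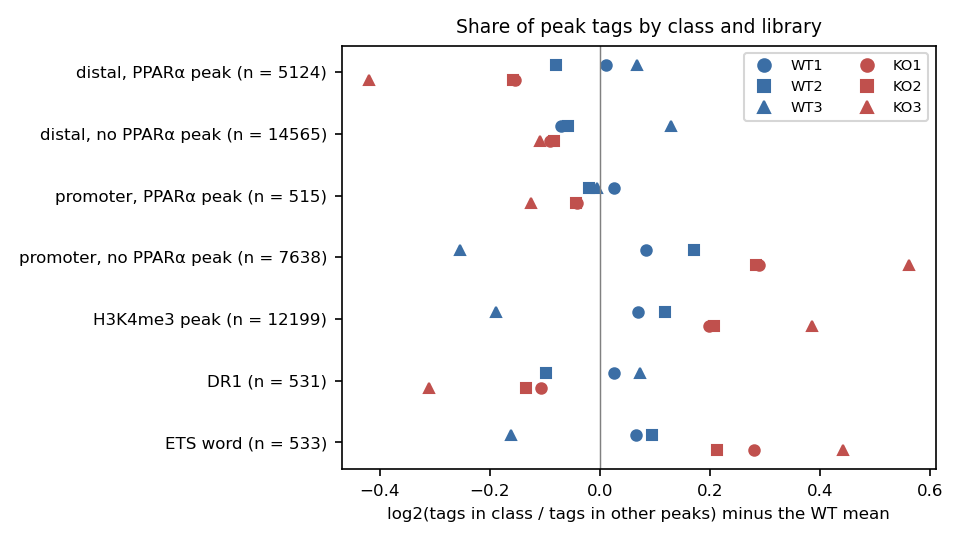
For 7 classes of GPS2 peaks (y axis, with the number of peaks), the log2 ratio of tags in the class to tags in all other peaks, minus the mean of the 3 WT libraries (x axis). Each point is a library, WT in blue and KO in red, with circles, squares and triangles for replicates 1, 2 and 3. KO points lie left of WT points for distal peaks with PPARα and for DR1 peaks, and right of them for promoters without PPARα, H3K4me3 and the ETS word, with replicate 3 farthest out in most classes.

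DNA words were searched in the central 200 bases on both strands. A DR1 with at most 1 mismatch was found in 531 peaks (1.91% of all) and in 5 of the 76 losses (6.58%). With up to 2 mismatches it was found in 9.23% of all peaks and 19.7% of the losses. The median log2 change of the 531 was -1.08, and their share of tags within a library was lower in every KO library than in every WT library. The ETS word CCGGAAGT, which is common at promoters, was found in 533 peaks, whose median change was -0.61. Of these 0 were called, where 0.273% of all peaks were. The forkhead word TGTTTAC was present in 1649 peaks, of which 4 were called (0.243%), near the 0.273% of all peaks. A match is a description of the letters only. Most losses held no DR1 at this setting, among them the repeat at Palb2 printed above.

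The 10 largest falls lay near Palb2, 4930532M18Rik, Cbfa2t3, Slc22a5, Capg, Pnpla5, Pmepa1, Prss1, Dlgap2 and Tnks. The names give the nearest start site, which lay up to 149225 bp away, and negative distances are upstream of it. All 10 were also lower with TMM. The peaks of Pnpla5 and Tnks were not in both PPARα lists of WT liver and the other 8 were. PPARα ChIP-seq held 6.37 and 9.94 tags per 10M at Tnks in WT and 0 and 0.733 in KO. At Pnpla5 it held 1.42 and 1.53 in WT and 0 and 2.20 in KO. The peak nearest to Palb2, a gene for a partner of BRCA2, held 23.6, 26.0 and 50.8 tags per 10M in WT and 2.18, 0 and 0.721 in KO. Its log2 change was -4.97 ± 0.76 with an adjusted p of 1.4e-06 by edgeR. It was called without each library in turn under both scalings. Of the 6 such fits, Tnks was called in 2 and, with TMM, in 1. Pmepa1 was called in 3 and 2, and Pnpla5 in 3 and 3. The rest were called in 4 or 5, and in 3 to 6 with TMM. Without replicate 3 of each genotype Pmepa1 and Tnks were not called with total tags, at adjusted p of 0.096 and 0.13 by edgeR. The intron peak of Cbfa2t3, a gene for an ETO-family corepressor, held 22.9, 16.3 and 26.2 in WT and 2.91, 0.757 and 0.721 in KO. Its log2 change was -3.81 ± 0.71 with an adjusted p of 0.00073 by edgeR. This is the site with 3 DR1 elements. The peak at -19413 bp from Slc22a5, which encodes the carnitine transporter OCTN2, held 21.5, 7.15 and 26.2 in WT and 2.18, 0.757 and 0.721 in KO. WT replicate 2 was the lowest WT library there. All 10 falls were chosen with no overlap between the WT and KO values.

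Lipid genes were among the other falls. Vnn1, which encodes a pantetheinase and is a known PPARα target, lost 2 peaks. The one at -9576 bp held 16.0, 14.3 and 20.8 tags per 10M in WT and 2.18, 2.27 and 1.44 in KO. It was lower under both scalings, with log2 changes of -3.06 ± 0.68 and, with TMM, -2.16 ± 0.47. The peak near Pnpla5, a lipase of the patatin family, held 17.3, 4.55 and 51.6 in WT and 1.46, 3.78 and 0.721 in KO. Here WT replicate 2 lay close to KO replicate 2, and without replicate 3 of each genotype the peak was not called, with an adjusted p of 0.093 by edgeR. The Acaa1b promoter, at the gene for a peroxisomal thiolase, was called with 7.63, 7.80 and 34.6 in WT and 2.91, 3.03 and 1.44 in KO. The fall there was largest in WT replicate 3, and with TMM its adjusted p was 0.14 by edgeR. A peak 8092 bp downstream of the start of Ppargc1a, which encodes the coactivator PGC-1α, held 40 tags in the 3 WT libraries and 2 in the 3 KO libraries. Scaled to total tags this is a ratio of 19.1 with an exact 95% interval of 4.95 to 163, which covers counting error only. With TMM it did not pass, at an adjusted p of 0.12 by edgeR.

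Other falls were named after their values were seen, for their roles in lipid metabolism. The peak at -1625 bp from Gpat4, a glycerol-3-phosphate acyltransferase of triglyceride synthesis, held 25.7, 21.5 and 50.8 tags per 10M in WT and 5.83, 5.30 and 0.721 in KO, and passed under both scalings. Peaks near Plin1, which encodes the lipid droplet protein perilipin 1, and Pxmp4, a peroxisomal membrane protein, passed with total tags only, at log2 changes of -2.53 ± 0.63 and -2.37 ± 0.60. One of the 2 promoter losses lay at Mfsd2a, which encodes a transporter of lysophosphatidylcholine. It held 39 tags in WT and 3 in KO, a ratio of 12.4 with an interval of 3.94 to 62.7, and did not pass with TMM. Leaving out each of the 6 libraries in turn kept the call with total tags 4 times at Gpat4, 2 times at Mfsd2a and at the Vnn1 peak at -9576 bp, and once at each of the second Vnn1 peak, Acaa1b, Ppargc1a, Plin1 and Pxmp4. The other is the Acaa1b promoter above.

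Of the 15 losses not in both PPARα lists of WT liver, 2 lay in exons of Ppara itself, whose nearest start site is that of Cdpf1. One held 11.8, 50.7 and 7.70 tags per 10M in WT and 2.18, 2.27 and 5.05 in KO. The other held 6.94, 40.3 and 6.93 in WT and 5.10, 1.51 and 1.44 in KO. Both were high in WT replicate 2 alone. Without it neither was called, with log2 changes of -1.59 and -1.34 and adjusted p of 0.17 and 0.26 by edgeR, and with TMM the adjusted p were 0.060 and 0.11 by edgeR. PPARα ChIP-seq tags at these rows were 12.7 and 6.12 in WT and 5.49 and 35.9 in KO at the first, and 2.83 and 3.06 in WT and 4.81 and 12.5 in KO at the other, so that the second PPARα KO library was the highest there.

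**Figure D4:**
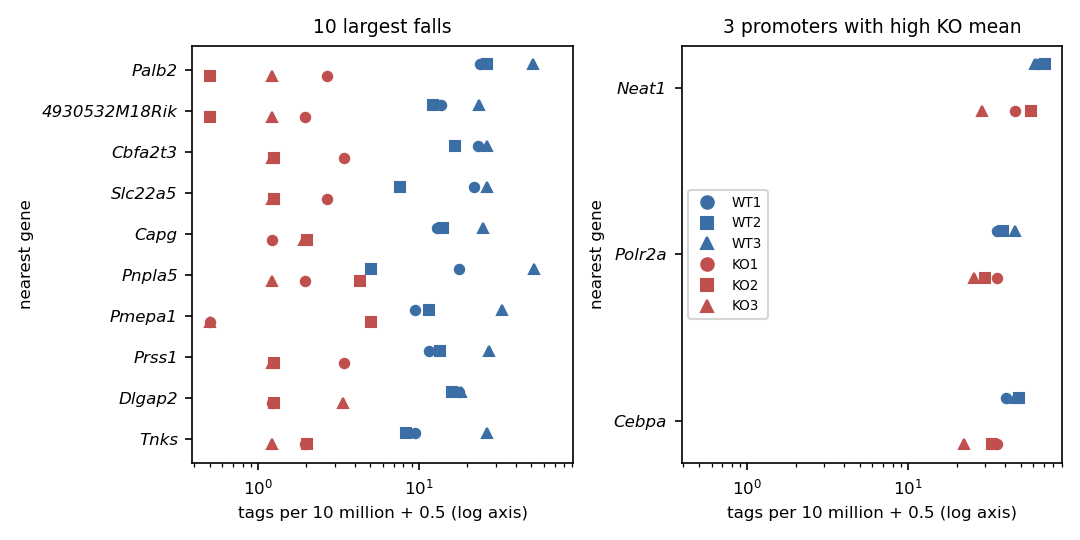
Tags per 10M plus 0.5 on a log axis (x) in each of the 6 libraries for the 10 largest falls (left) and for 3 promoter peaks with a high KO mean, chosen after their values were seen (right). WT is blue and KO red, with circles, squares and triangles for replicates 1, 2 and 3. The groups stand apart in every row on the left, which was a condition of the choice. On the right KO also lies below WT, with KO replicate 3 lowest in each row.

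NCOR and PPARα tags at most of the 76 falls were also lower in KO libraries of the same line. NCOR could be matched at 74. Its median there was 58.9, 58.9 and 72.5 tags per 10M in WT and 20.4, 19.5 and 15.7 in KO, a larger drop than the 38.2, 36.1 and 43.8 to 32.7, 35.0 and 24.2 over all peaks. The median log2 change of NCOR was -1.60 at the 74 and -0.27 over 25855 matched peaks, and it was negative at all 74. NCOR libraries were not used to choose the 76, though the tissue is the same. PPARα could be matched at 75, with medians of 18.4 and 18.4 in WT and 1.37 and 1.47 in KO. At the 2 rows in exons of Ppara the second PPARα KO library was the highest, and at 1 of them the first KO library lay below both WT libraries. In WT liver of the Gps2 line, with 1 library per genotype, the median GPS2 level at 74 of the falls was 30.3 and in LKO 0.676. Over all matched peaks it was 16.1 and 0.676, and this LKO library was also near 0 at the ribosomal RNA rows. GPS2 in the line with hepatocyte loss of NCOR had medians of 36.5, 23.3 and 9.65 in WT and 8.38, 8.27 and 6.23 in LKO at 75 of the falls. Over all matched peaks the medians were 18.2, 15.8 and 6.97 in WT and 5.91, 6.496 and 4.67 in LKO, so lower levels in LKO were not particular to the falls.

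Few peaks of PPARα target genes passed the test, but they were a larger share than among all peaks. The 4 target lists held 67 genes, of which 59 had 148 peaks within 20000 bp. Of the 148 peaks, 3 were lower (2 at Vnn1, 1 at Acaa1b), a larger share than the 0.273% of all peaks. Their median log2 change was -1.14 with total tags and -0.21 with TMM, against -0.93 and 0.01 over all peaks. All 3 KO libraries were below all 3 WT libraries in 69 of 148 peaks (46.6%), against 31.3%. PPARα was present at 77 of the 148 (52.0%).

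Genes of omega and microsomal oxidation, the Cyp4a family and Aldh3a2, had the lowest median of the 4 lists. It was -1.74 over 11 peaks with total tags and -0.83 with TMM, and 0 of the 11 peaks passed alone. The highest peak of Cyp4a10, a fatty acid omega-hydroxylase, held 25.7, 33.2 and 42.3 tags per 10M in WT and 10.9, 6.05 and 6.49 in KO. The groups did not overlap, and the adjusted p was 0.061 by edgeR. With tags summed over all peaks of a gene, an alternative chosen after the data were seen, 43 of 9652 genes were lower (0.446%), or 23 with TMM (0.238%) with 10 higher (0.104%). Cyp4a32 was lower under both scalings, with log2 changes of -2.28 ± 0.53 and -1.49 ± 0.31. Cyp4a10 passed with TMM only, at -0.97 ± 0.24 and an adjusted p of 0.035 by edgeR. The Cyp4a genes are close copies of each other, so tags may have been placed at the wrong copy.

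Cyp4a14, a strongly PPARα-dependent hydroxylase gene, had 1 peak. It held 14.6, 16.9 and 22.3 tags per 10M in WT and 10.9, 11.3 and 2.88 in KO, with a log2 change of -1.09 ± 0.57. The KO libraries were all below the WT libraries, but the adjusted p was 0.23 by edgeR and the TMM change was -0.20 ± 0.34. Both changes were below the medians of all peaks, -0.93 and, with TMM, 0.01, but by less than their SE.

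Peroxisomal oxidation genes had 39 peaks with a median of -1.19, or -0.21 with TMM, and 28 of the 39 lay below WT in all libraries. The highest Acot4 peak, at a peroxisomal acyl-CoA thioesterase gene, held 34.7, 19.5 and 50.8 in WT and 14.6, 9.84 and 5.05 in KO. Its adjusted p was 0.11 by edgeR. Ehhadh and Abcd3, which encode the bifunctional enzyme and a peroxisomal transporter, had log2 changes of -0.97 ± 0.55 and -0.83 ± 0.54 at their highest peaks, near the median of all peaks.

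Mitochondrial oxidation and ketogenesis genes had 43 peaks with a median of -1.05, or -0.08 with TMM, and 0 were called. The highest Cpt1a peak, at the gene for the carnitine palmitoyltransferase that commits fatty acids to mitochondria, held 29.8, 14.3 and 49.2 in WT and 29.1, 16.6 and 7.93 in KO, and the groups overlapped. Pdk4, which encodes the kinase that inhibits pyruvate dehydrogenase, had 5 peaks and 0 passed. The peak at -13552 bp, printed above, held 12.5, 10.4 and 17.7 in WT and 2.91, 3.78 and 2.16 in KO. Its log2 change was -2.16 ± 0.65 with an adjusted p of 0.096 by edgeR, and -1.24 ± 0.45 with TMM. The peak at -2701 bp held 18.04, 16.3 and 51.6 in WT and 11.7, 7.57 and 3.61 in KO, at -1.89 ± 0.58. The promoter peak held 13.9, 24.7 and 36.9 in WT and 13.8, 9.08 and 5.05 in KO, at -1.42 ± 0.57. A downstream peak changed by -1.05 ± 0.59, and there the groups overlapped. A difference between these peaks was not tested.

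Genes of lipid uptake, droplets and secreted factors had 55 peaks with a median of -1.10, or -0.19 with TMM, and the 2 Vnn1 peaks were called. The Plin5 promoter, at a droplet protein gene of oxidative tissues, held 39.5, 21.5 and 48.5 in WT and 10.2, 13.6 and 7.93 in KO. Its log2 change was -1.78 ± 0.56 and its adjusted p 0.12 by edgeR. Promoters of Plin2, Acsl1 and G0s2 had changes of -0.19, -0.42 and -0.19, and 0.73, 0.54 and 0.87 with TMM, none past the threshold. Fgf21, the secreted fasting factor, had 2 low peaks without PPARα. They changed by -0.90 ± 0.66 and -1.13 ± 0.61 and were not called.

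**Figure D5:**
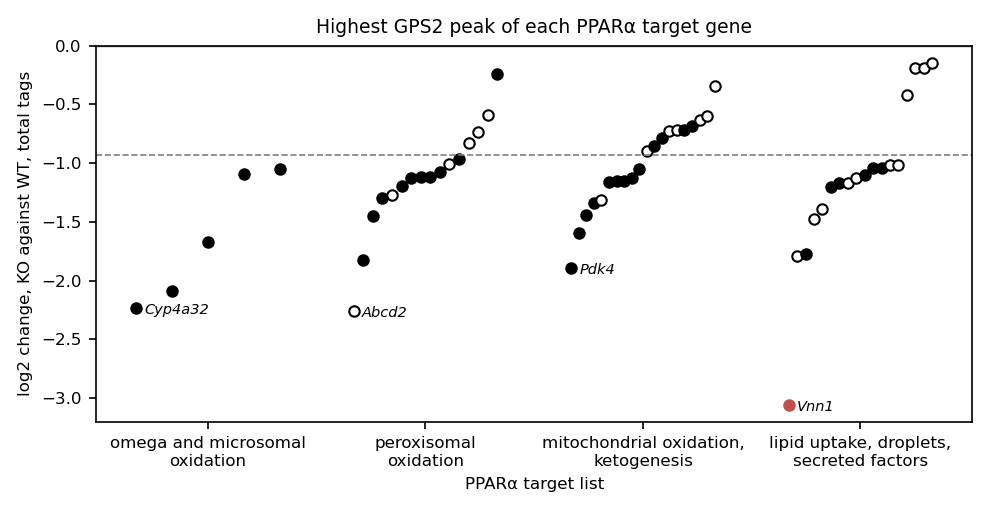
Log2 change in KO against WT, scaled to total tags (y axis), of the highest GPS2 peak of each PPARα target gene, ordered within 4 lists (x axis). Filled points have a PPARα peak, open points have none, red marks an adjusted p below 0.05, and the dashed line is the median of all 27842 peaks, at -0.93. Most points lie between 0 and -2, Vnn1 is the only red point, and the lowest gene of each list is named.

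In the lists of corepressor subunits, lipogenesis and LXR targets, bile acids, the circadian clock, hepatocyte transcription factors and glucose 0 peaks were called, where 0.273% of all peaks were, and the list medians lay between -0.94 and -0.74. Lists of cholesterol synthesis, plasma proteins and the growth hormone axis also had 0 calls, with medians of -0.84, -0.76 and -0.85. Ribosomal protein and respiratory chain genes, again with 0 calls, had the highest medians, at -0.62 and -0.66, or 0.32 and 0.21 with TMM. At Nr0b2, which encodes the bile acid-induced repressor SHP, the promoter peak held 27.8, 28.0 and 75.4 tags per 10M in WT and 27.7, 18.2 and 15.1 in KO. The Cyp7a1 peak, at the gene for the rate-limiting enzyme of bile acid synthesis, changed by -1.54 ± 0.57 and was not called. The Fasn and Srebf1 peaks, at genes of lipogenesis, changed by -0.46 ± 0.52 and -0.98 ± 0.55. The G6pc promoter, at the gene for the last enzyme of glucose release, changed by -0.90 ± 0.52. The clock genes Arntl and Nr1d1 changed by -1.11 ± 0.51 and -1.15 ± 0.54. With TMM these 7 changes lay between -0.64 and 0.47 and were not called. Among 28 peaks of receptor partners the Ppargc1a peak above was called with total tags, and with TMM 0 were called.

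The peaks with the highest KO levels were of several kinds, and were chosen by KO level and not by their change. Of the 10 with the highest KO mean within 20000 bp of a gene, 4 were annotated as ribosomal RNA sequence (those near Txndc11, Kpna1, Hic2 and Il31ra). The others did not have that annotation and lay near Limd1, G530011O06Rik, Ptgds, Pisd-ps2, Neat1 and Hjurp. The row near Limd1 held 126, 120 and 124 tags per 10M in WT and 123, 132 and 120 in KO. PPARα ChIP-seq held 73.6 and 72.7 there in WT and 85.1 and 63.0 in KO, so it was high also in liver without the receptor. Whether this row is ribosomal sequence too was not tested. The peak near Ptgds, a prostaglandin D synthase gene, had a PPARα peak. It held 67.3, 65.0 and 111 tags per 10M in WT and 65.5, 64.3 and 28.1 in KO, so that 2 libraries of each genotype held nearly the same level. Its log2 change was -0.62 ± 0.44. The peak near Hjurp also had PPARα, with 52.7, 46.8 and 110 in WT and 50.2, 43.9 and 30.3 in KO.

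Promoters with high KO levels were the other kind. They were picked after their values were seen and included Neat1, Cebpa and Polr2a, each with H3K4me3 and without PPARα. The Neat1 promoter, at a long noncoding RNA gene, held 62.4, 70.2 and 60.8 in WT and 45.9, 57.5 and 28.1 in KO. The Cebpa promoter, at a hepatocyte transcription factor gene, held 40.2, 48.1 and 45.4 in WT and 35.0, 32.5 and 21.6 in KO. The Polr2a promoter, at the gene for the large subunit of RNA polymerase II, held 35.4, 38.4 and 45.4 in WT and 35.0, 29.5 and 25.2 in KO. The KO values were lower in each case, and the log2 changes of -0.56, -0.58 and -0.41 did not pass.

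The 15 peaks called higher with TMM did not pass with total tags, where their log2 changes ran from 0.37 to 1.60 and 7 had all KO libraries above all WT libraries (0.14% of all peaks did). They lay near Vmn1r77, Gm21119 (3 peaks on an unplaced sequence of chromosome 8), G530011O06Rik (4 peaks on chromosome X), 8430422H06Rik, Ppp1r3b, Trim56, Mff, Tmem125, Serpina1e and Pdia4. All 15 were in a peak list of a KO library, against 9861 of all peaks, and 4 had NCOR, against 85.0% of all peaks. The Vmn1r77 peak held 4.16, 4.55 and 3.08 tags per 10M in WT and 11.7, 6.81 and 18.03 in KO. It changed by 2.56 ± 0.43 with TMM and by 1.60 ± 0.62 with total tags, where the adjusted p was 0.16 by edgeR. The Pdia4 peak, at the gene for an endoplasmic reticulum disulfide isomerase, held 9.02, 9.10 and 13.1 in WT and 16.7, 18.2 and 9.37 in KO, and the groups overlapped.

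Liver RNA of Gps2 LKO mice was looked up for the genes near lost peaks. Of 36 nearest genes within 20000 bp of the 76 falls, 24 were measured. In LKO liver 8 were higher (33.3%) and 7 lower (29.2%) by edgeR, against 21.3% and 26.1% of 7757 measured genes near any peak, and 23.4% and 21.4% of all 12220 genes tested. The direction was thus mixed. Mfsd2a and Pnpla5 were higher in LKO, with log2 changes of 2.37 ± 0.07 and 2.85 ± 0.25. Vnn1 and Acaa1b were higher by 0.39 ± 0.08 and 1.09 ± 0.08. Serinc2 was lower, at -2.43 ± 0.16, and Slc22a5 was lower, at -0.58 ± 0.09. The Cbfa2t3 RNA changed by 0.09 ± 0.16 and did not pass. RNA of the Ppara KO was not analysed here.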

How the data were processed

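GPS2 was measured by ChIP-seq in 3 WT and 3 KO livers crosslinked with DSG and formaldehyde. Per the paper's methods and the labels, the authors aligned reads to mm9 with Bowtie, called and merged peaks with HOMER and deposited raw tag counts per peak, with total tags in the column headers. The deposited peak score was not used. The deposited peak lists hold positions and a constant other value of 1. The authors' comparison columns in the RNA table were not used.

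The counts were tested by edgeR 4.0.16 (quasi-likelihood, all 27842 rows, Benjamini-Hochberg adjustment) in R 4.3.3, with total tags as library size. Alternatives were TMM, tags in peaks, DESeq2 1.42.0, filters, a replicate block and leaving out libraries. The test was checked on simulated counts. Log2 changes carry SE. A row with evenly spread tags would hold 1.14 tags per 10M. Libraries were compared with each other and none was a copy. Same-numbered WT and KO libraries did not deviate together (correlations 0.000156, 0.0208 and -0.00161), so numbers were not taken as pairs. PPARα peaks had to be in both WT lists and NCOR peaks in 2 lists, by 1 bp. RNA counts of 12220 genes were tested by edgeR with TMM. DR1 and word searches used the mm9 genome, and 32 rows on unplaced sequence were left out of them.

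Named peaks were, per listed gene, the highest within 20000 bp, the 10 largest falls with at least 60 tags and no overlap, the 10 highest in KO, and all peaks of Pdk4, Cyp4a14 and Fgf21. No rise met the same terms. The members and lists were chosen with earlier results of these data known. The methods call the replicates biological.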

Additional observations from a re-analysis of the deposited data

How the results depend on the processing

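The count of 76 peaks lower in KO became 27 with TMM, 7 with DESeq2 and its own size factors, 150 with edgeR's filter on low counts, 195 among peaks in at least 2 lists, 24 at an adjusted p below 0.01, and 43 or 23 (TMM) over genes. In-peak scaling and DESeq2 with total tags kept it within 1.5 times. The count of 0 higher became 15 with TMM, 38 with in-peak tags, 5 with DESeq2's size factors, and 1 with either filter. The median change of -0.93 became 0.0080 with TMM, -0.034 with in-peak tags and -0.00096 with DESeq2's size factors. Lower peaks with PPARα numbered 61, and 25, 7, 110, 143 and 21 with TMM, DESeq2's size factors, the filter, 2 lists and the stricter threshold. The 3 calls at PPARα targets became 1, 1, 0, 7, 5 and 1 with TMM, in-peak tags, DESeq2's size factors, the filter, 2 lists and the stricter threshold.

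With the replicate number as a block 0 peaks were lower (1733 at an unadjusted p below 0.05), 0 with PPARα and 0 at targets. TMM with the block gave 6 lower, 4 higher, a median of 0.013, 6 with PPARα and 0 at targets. The numbers were not shown to pair the samples.

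Leaving out WT replicate 1, 2 or 3 and then KO replicate 1, 2 or 3 gave 2 to 68 lower and 0 higher with total tags. With TMM it gave 8, 29, 21, 3, 17 and 29 lower and 5, 27, 4, 6, 14 and 3 higher. Medians ranged from -1.12 to -0.58 and, with TMM, were 0.0093, 0.0019, -0.0073, -0.0102, -0.0200 and -0.0184. With PPARα 2 to 55 were called and, with TMM, 8, 27, 17, 3, 16 and 27. At targets 0 to 3 were called, and 0 to 1 with TMM. The share of tags in peaks fell by 0.82 to 1.80 percentage points. The ratio of PPARα to other peaks stayed between -0.28 and -0.15, and that of promoters to distal peaks between 0.23 and 0.42.

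Alternatives chosen after seeing the data were these. Without replicate 3 of both genotypes 111 were lower and 1 higher with a median of -0.35, and with TMM 8 lower, a median of -0.012, 7 with PPARα and 0 at targets. Without peaks listed only in WT replicate 3, 198 were lower and 1 higher, 140 with PPARα and 8 at targets, and with TMM 46 lower, 37 higher, a median of -0.0045 and 1 at targets. Of the 150 and 195 peaks called with the filters, 59 and 66 were among the 76. The causes of these moves were not tested.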

Other observations

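Rows annotated as tRNA sequence kept the same level within each genotype and differed between genotypes. This class was looked at after its values were seen. Transfer RNA genes are transcribed by RNA polymerase III. Over 91 rows the mean was 18.3, 18.7 and 20.1 tags per 10M in WT and 10.5, 11.1 and 9.73 in KO. The groups did not overlap, and neither WT replicate 3 nor KO replicate 3 stood apart as they did over all peaks. In 64 of the 91 rows (70.3%) all KO libraries lay below all WT libraries, against 31.3% of all peaks. No single row was called, where 0.273% of all peaks were. The median log2 change was -0.85 with total tags, 0.07 with TMM, and -0.82 and -0.48 without replicate 3 of each genotype. Over all peaks these medians were -0.93, 0.01, -0.35 and -0.012, so the fall with all libraries was no larger than the general one. The log2 ratio of tags in these rows to all other peaks did not separate the genotypes (exact permutation p = 1.0).

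The 124 GPS2 peaks that lay in a PPARα peak list of KO liver had a median log2 change of -0.28, or 0.65 with TMM. With total tags 2 were called lower, where 0.273% of all peaks were. With TMM 7 were called higher, where 0.0539% of all peaks were. These 7 were among the 15 peaks called higher with TMM. Their mean was 41.5, 39.6 and 33.3 tags per 10M in WT and 38.9, 39.5 and 34.9 in KO.

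All 6 rows in exons of Ppara were highest in WT replicate 2. The 2 called are given above. A further exon row held 4.86, 26.7 and 4.62 tags per 10M in WT and 2.18, 2.27 and 2.16 in KO. PPARα ChIP-seq tags there were 2.12 and 0 in WT and 3.43 and 11.7 in KO, again highest in the second KO library. An intron row next to them held 18.7, 15.6 and 26.9 in WT and 11.7, 10.6 and 6.49 in KO, and WT replicate 2 was the lowest WT library there.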
